A study of Homo sapiens with 6 samples.

Results

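Long non-coding RNA genes were followed in MDA-MB-231 cells upon miR-138 knockdown: the small nucleolar RNA (snoRNA) host genes GAS5, SNHG1, SNHG5, SNHG8 and SNHG12, the nuclear RNAs NEAT1 and MALAT1, the imprinted genes H19 and MEG3, and DGCR5. These 10 genes were set beside the 20039 genes that the array names with at least 1 probe, and every probe that the platform annotation assigns to 1 of them, under a current or an older symbol, was taken. This gave 13 probes for 9 of the genes; no probe is named for NEAT1 here. Of these, 6 probes of 5 genes (SNHG5, SNHG8, SNHG12, SNHG1 and DGCR5) were bright enough to be tested.

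MDA-MB-231 is a basal, triple-negative human breast cancer line. One group was infected with lentivirus (6 transduction units) expressing antagomiR-138, which binds and blocks miR-138, and the control cells received the same amount of a virus with a scrambled sequence. Both vectors drive the inhibitor from an H1 promoter and carry a fluorescent and a puromycin marker, so both groups had been exposed to virus; the share of infected cells was not measured here. Cells were harvested 72 hours (day 3) after transduction, and RNA of 3 antagomiR-138 and 3 scrambled control samples was hybridised on Illumina bead arrays. No source says whether the 3 samples of a group were separate cultures, and the p-values cover the spread of these arrays alone, which may be no more than technical.

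Most snoRNAs of human cells are not transcribed on their own. They are cut out of introns of host genes, and in the SNHG genes and GAS5 it is the introns that are conserved, while the spliced RNA codes for no known protein, is exported, meets ribosomes and is often degraded by nonsense-mediated decay. Many hosts begin with a run of pyrimidines, as ribosomal protein mRNAs do, and GAS5 was named for its rise in growth-arrested cells. NEAT1 builds the nuclear bodies called paraspeckles, MALAT1 lies in the splicing factor stores called nuclear speckles, and H19 and MEG3 are expressed from the maternal allele. DGCR5 lies in the DiGeorge region of chromosome 22.

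The inhibited miRNA, hsa-miR-138-5p, is the same 23 bases from both of its loci, MIR138-1 (chr3:44114234-44114256, plus strand) and MIR138-2 (chr16:56858527-56858549, plus strand), in RefSeq on GRCh38.p14. It is shown because it is the RNA that the antagomiR was built to pair with, and its capitals mark the seed, bases 2 to 8. Labelled cRNA does not report a mature miRNA, and the precursor probes were above background on no array.
hsa-miR-138-5p: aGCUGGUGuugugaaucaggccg

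Of the 10 genes, 8 have a start site in the RefSeq promoter table. The windows of the 4 snoRNA hosts that could be tested are shown, since SNHG5 and SNHG8 fell, SNHG1 rose and SNHG12 did not pass the test. Each runs from 100 bases before to 50 bases after the annotated start, on the gene's strand in GRCh38.p14: SNHG5 is chr6:85678684-85678833 (minus), SNHG8 chr4:118278662-118278811 (plus), SNHG12 chr1:28581824-28581973 (minus) and SNHG1 chr11:62855836-62855985 (minus). Capitals mark TATAA on either strand (TTATA is its reverse complement) and the longest run of C and T that touches the 10 bases on either side of the start.
SNHG5: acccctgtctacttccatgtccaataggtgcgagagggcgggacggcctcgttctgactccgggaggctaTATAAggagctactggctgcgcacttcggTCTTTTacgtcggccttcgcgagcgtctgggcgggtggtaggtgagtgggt
SNHG8: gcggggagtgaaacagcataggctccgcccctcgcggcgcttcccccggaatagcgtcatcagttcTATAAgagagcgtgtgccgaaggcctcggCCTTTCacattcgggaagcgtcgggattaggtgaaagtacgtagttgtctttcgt
SNHG12: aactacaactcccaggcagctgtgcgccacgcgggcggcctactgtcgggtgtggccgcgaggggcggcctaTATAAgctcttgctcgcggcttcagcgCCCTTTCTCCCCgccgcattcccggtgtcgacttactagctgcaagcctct
SNHG1: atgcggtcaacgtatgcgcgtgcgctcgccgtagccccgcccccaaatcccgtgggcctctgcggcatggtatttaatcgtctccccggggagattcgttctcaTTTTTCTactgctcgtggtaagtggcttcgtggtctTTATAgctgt

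The start used for SNHG12 lies inside its annotated span (28578538 to 28582983), so its matches belong to an internal start. For SNHG5, SNHG8 and SNHG1 the start used is the 5' end of the span. SNHG5, SNHG8 and SNHG12 hold TATAA on their own strand, with its first base at positions -30, -34 and -28 from the start. SNHG1 holds it only on the opposite strand, at position 41 after the start. Of all 35116 RefSeq windows of this length, 11.05% hold TATAA on either strand and 3.91% hold it on their own strand with its first base between -40 and -20. The pyrimidine run near the start is 6 bases in SNHG5 (positions -1 to 5) and 6 in SNHG8 (-5 to 1). It is 12 bases in SNHG12 (-1 to 11) and 7 in SNHG1 (5 to 11). The run thus lies mostly before the start in SNHG8 and after it in SNHG1. Of all windows, 31.1% have a run of 6 or more that touches the same bases. These are matches of letters, and no binding or start site was measured.

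Signals are given on the log2 scale after background correction and quantile normalization across the 6 arrays. A probe is called above background on an array with a detection p under 0.05 against that array's negative controls, and it was tested with limma where this held on at least 3 of the 6 arrays. Every log2 fold change is the antagomiR-138 mean minus the scrambled control mean. Knockdown was accompanied by very broad differences: of the 20051 probes tested, 49.9% passed an adjusted p (Benjamini-Hochberg) of 0.05, 26.0% higher and 23.9% lower in antagomiR-138 cells, and 59.1% had no overlap between the groups. Counts among the members have to be read against these shares. Arrays detected 19263 to 20430 probes, and signals correlated across probes at 0.994 to 0.996 within a group and at 0.968 to 0.970 between the groups. Of the 10 markers of mesenchymal basal breast lines listed, 9 were above background on enough arrays to be tested, and of 10 luminal markers 5 were. Of these 9, VIM did not differ and 4 were lower in antagomiR-138 cells, CD44 and EGFR among them.

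**Figure D1:**
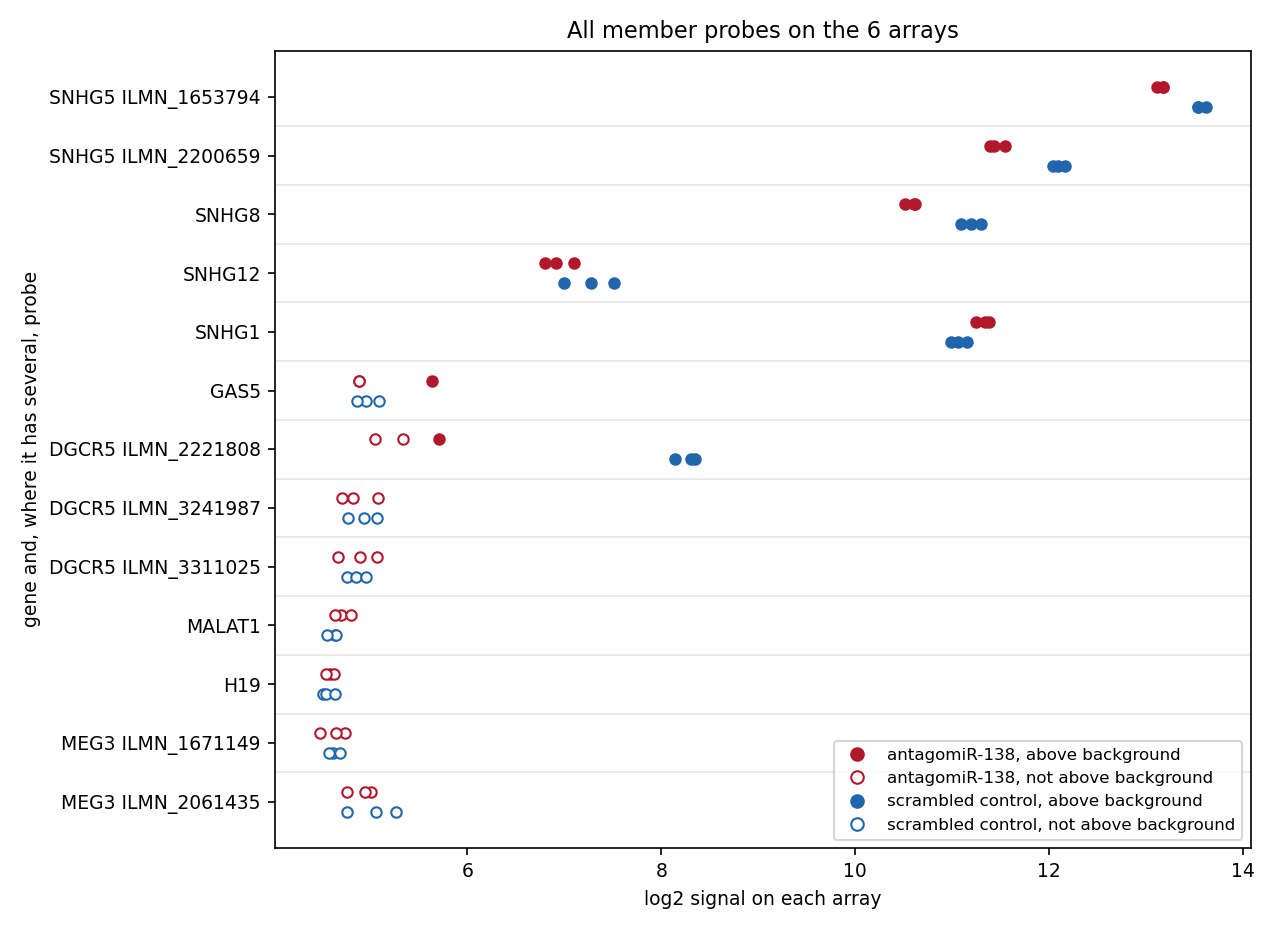
All 13 probes of the member genes, with the log2 signal of each array on the horizontal axis; antagomiR-138 arrays are red and lie above the blue scrambled control arrays, filled points are above background (detection p under 0.05) and open points are not. The 5 probes of SNHG5, SNHG8, SNHG12 and SNHG1 are filled on all 6 arrays, DGCR5 probe ILMN_2221808 on 3 control arrays and 1 antagomiR-138 array, GAS5 on 1 antagomiR-138 array, and the other 6 on none.

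Among the tested snoRNA hosts, SNHG5 and SNHG8 fell upon miR-138 knockdown, SNHG1 rose slightly and SNHG12 did not pass the test. With DGCR5, 4 of the 6 member probes tested fell, 1 rose and 1 missed the threshold. Over all probes tested 23.9% were lower and 26.0% higher. DGCR5 passed the filter through the control arrays, where it was high, and such an entry favours a difference. The median log2 fold change was -0.52 over the 6 probes and -0.41 over the 5 that were above background on all 6 arrays, beside 0.03 over all probes tested.

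SNHG5, on chromosome 6, hosts the snoRNAs SNORD50A and SNORD50B and is measured by 2 probes. Probe ILMN_1653794 read 13.18, 13.18 and 13.11 in the 3 antagomiR-138 samples, against 13.54, 13.54 and 13.62 in the scrambled control samples. Every antagomiR-138 value lay below every control value, with a gap of 0.36. The log2 fold change was -0.41 (standard error 0.06, adjusted p = 0.00165, limma), or 1.33-fold lower. The other probe, ILMN_2200659, read 11.43, 11.55 and 11.39 in antagomiR-138 samples, against 12.09, 12.04 and 12.16 in scrambled control samples. It fell by 0.64 (standard error 0.07, adjusted p = 0.000446, limma), or 1.56-fold, again without overlap, so both probes of the gene moved the same way.

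SNHG8, on chromosome 4, hosts SNORA24. Its probe read 10.62, 10.61 and 10.51 in antagomiR-138 samples, against 11.09, 11.30 and 11.20 in scrambled control samples. The groups were apart by 0.48, and the log2 fold change was -0.62 (standard error 0.08, adjusted p = 0.000698, limma), or 1.54-fold lower.

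SNHG12, on chromosome 1, hosts SNORA61, SNORA16A and SNORD99 among others. Its probe read 7.09, 6.80 and 6.92 in antagomiR-138 samples, against 7.28, 7.51 and 6.995 in scrambled control samples. The lowest control value lay between the antagomiR-138 values, so the groups overlapped. The log2 fold change of -0.32 (95% interval -0.67 to 0.02) did not pass the test (adjusted p = 0.106, limma). The value moved with single arrays: it was -0.46 without scrambled control replicate 3 (adjusted p = 0.0298, limma), the 1 such fit that passed, and -0.20 without scrambled control replicate 2 (adjusted p = 0.266).

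SNHG1, on chromosome 11, has 8 snoRNA genes inside it. Its probe read 11.38, 11.24 and 11.34 in antagomiR-138 samples, against 11.06, 11.15 and 10.98 in scrambled control samples. Here the antagomiR-138 samples were the higher ones, by a gap of only 0.09. The log2 fold change was 0.26 (95% interval 0.08 to 0.43, adjusted p = 0.0257, limma), or 1.19-fold higher. The call was lost without antagomiR-138 replicate 1 (adjusted p = 0.0760, limma), without antagomiR-138 replicate 3 (0.0698), without scrambled control replicate 1 (0.0639) and without scrambled control replicate 3 (0.0815), while the sign stayed positive in all 6 fits that left out 1 sample.

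**Figure D2:**
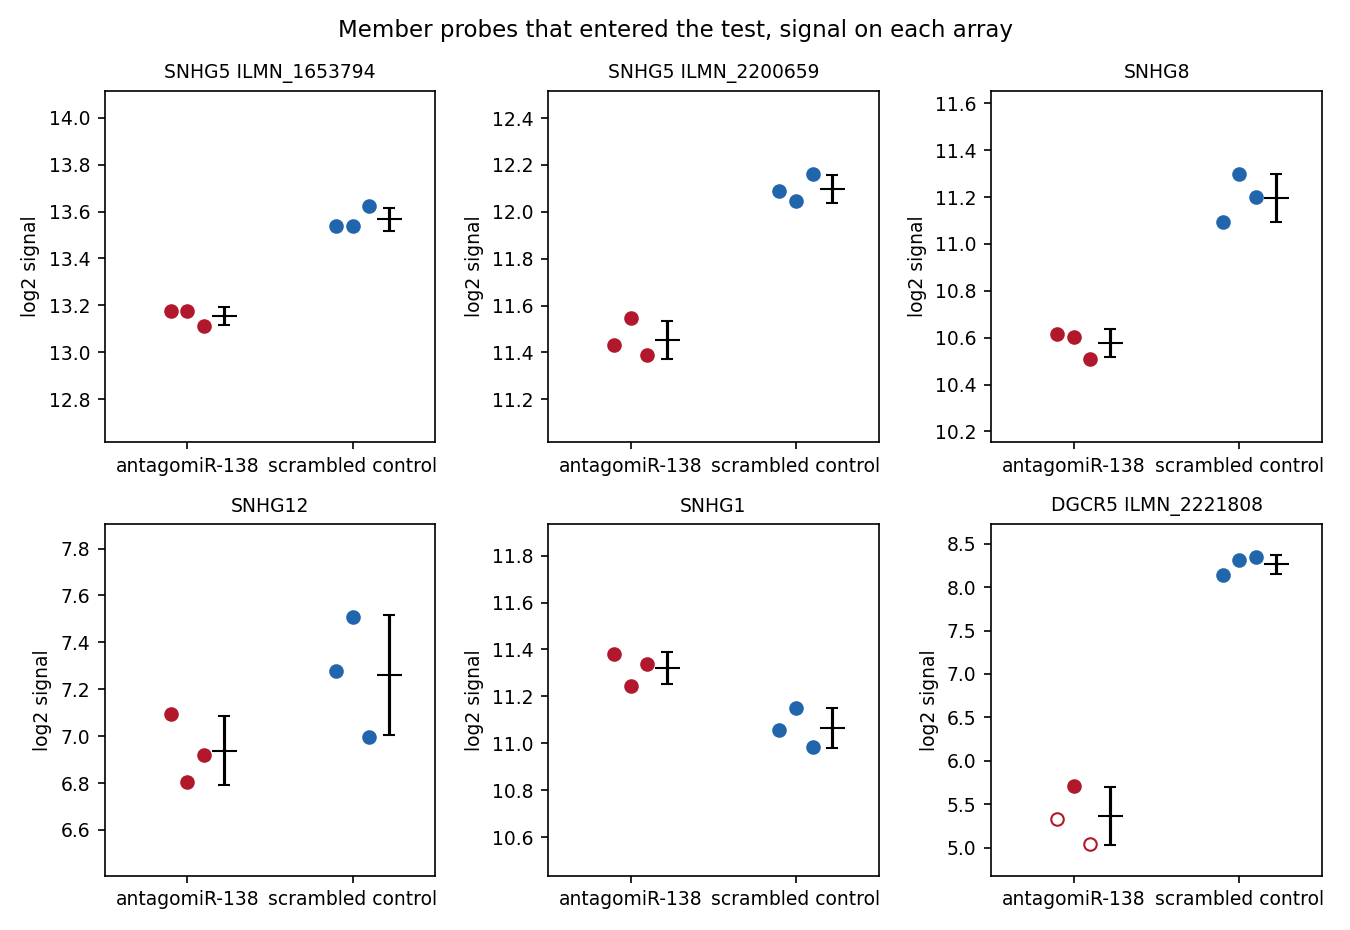
The 6 tested member probes, 1 panel each, with the log2 signal on the vertical axis (axes do not start at 0, and the DGCR5 panel spans a wider range), antagomiR-138 samples at the left and scrambled control samples at the right. Points are single arrays, open where the probe was not above background, and the bars beside them are the mean and SD (n = 3); the groups overlap for SNHG12 and are apart for the other 5 probes, with SNHG1 the one that is higher in antagomiR-138.

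DGCR5 was lower in antagomiR-138 cells with the 1 probe that could be tested. Probe ILMN_2221808 read 5.33, 5.71 and 5.04 in antagomiR-138 samples, against 8.14, 8.31 and 8.35 in scrambled control samples. All 3 control arrays were far above background, whereas in antagomiR-138 cells only replicate 2 was above it (detection p 0.0519, 0.0143 and 0.187 in replicates 1 to 3), and the dimmest probes called above background on these arrays lay at 5.34, 5.45 and 5.42. The probe therefore entered the test through the control arrays, and 2 of its 3 antagomiR-138 values are at background. The difference is therefore given as a bound, with each antagomiR-138 array set to the dimmest detected probe where DGCR5 lay below it: the means were then 5.49 in antagomiR-138 samples and 8.26 in scrambled control samples, or at least 6.84-fold lower (adjusted p = 3.52e-05 in limma's fit of the measured values). The call held in the 22 alternatives in which the probe entered, and it did not enter where detection was required on all 6 arrays. These refits reuse the same arrays and the same antagomiR-138 values at background. Neither their agreement nor the adjusted p is therefore separate support for the fall.

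The annotation of RefSeq now places 2 further transcripts under DGCR5 that the array lists as DGCR9 and DGCR10. Their probes, ILMN_3241987 and ILMN_3311025, were above background on no array, with log2 signals of 4.67 to 5.07 in antagomiR-138 samples and 4.75 to 5.07 in scrambled control samples. The gene spans 60775 bases, so the fall seen with 1 probe is not a measurement of all of its transcripts.

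The remaining members could not be compared. GAS5, whose spliced RNA gathers in arrested cells, was above background on 1 of 6 arrays: its probe read 4.88, 5.63 and 4.88 in antagomiR-138 samples, against 4.95, 4.86 and 5.09 in scrambled control samples. Only antagomiR-138 replicate 2 passed the detection limit (detection p 0.0169), and the other antagomiR-138 samples were within the range of the controls. MALAT1, a nuclear RNA usually counted among the abundant ones, read 4.63 to 4.79 in antagomiR-138 samples and 4.56 to 4.64 in scrambled control samples with its single probe, above background on no array. H19 read 4.54 to 4.62 in antagomiR-138 samples and 4.51 to 4.63 in scrambled control samples. The MEG3 probes read 4.48 to 5.00 in antagomiR-138 samples and 4.57 to 5.26 in scrambled control samples. None of the H19 and MEG3 probes was above background either. A probe below background says nothing of whether the RNA was there, only that these probes gave no usable signal.

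The snoRNAs encoded within the hosts gave a second view of the same loci. By RefSeq coordinates 26 snoRNA genes lie inside the members, 21 of them have a probe and 10 probes were tested. Of these 10, 7 fell in antagomiR-138 cells, 1 rose and 2 missed the threshold, with a median log2 fold change of -0.59. Over all probes tested 49.9% were called and 23.9% were lower. All 113 snoRNA genes tested, these 10 among them, split evenly (33 higher, 31 lower, 49 not past, median -0.01). SnoRNAs that share a host are not independent of each other, and the members were chosen with earlier results known. The labelled cRNA may come from host introns or precursors as well as from mature snoRNAs, which the arrays cannot tell apart.

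SNORA24, an H/ACA box snoRNA of the kind that guides pseudouridylation, lies in SNHG8 (chr4:118279190-118279320 in GRCh38.p14). It read 8.36, 8.45 and 8.34 in antagomiR-138 samples, against 9.10, 9.23 and 9.10 in scrambled control samples. It fell by 0.76 (standard error 0.07; adjusted p = 0.000213, limma), so snoRNA and host were both lower.

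All 3 snoRNAs tested inside SNHG12 fell, although the host's own probe did not pass. SNORA61 read 9.26, 9.23 and 9.22 in antagomiR-138 samples, against 9.72, 9.67 and 9.66 in scrambled control samples (log2 fold change -0.44, adjusted p = 0.000916, limma). SNORA16A read 6.57, 6.59 and 6.61 in antagomiR-138 samples, against 7.11, 7.49 and 7.29 in scrambled control samples (-0.71, adjusted p = 0.00132). SNORD99, a C/D box snoRNA of the kind that guides 2'-O-methylation, read 6.05, 6.02 and 5.95 in antagomiR-138 samples, against 6.60, 6.99 and 6.63 in scrambled control samples (-0.73, adjusted p = 0.00193). In each of the 3 the groups were apart by 0.39 to 0.54, against SDs of 0.02 to 0.06 in antagomiR-138 samples and 0.03 to 0.22 in scrambled control samples. The log2 fold change of the snoRNA minus that of the host was -0.39 for SNORA16A and -0.41 for SNORD99 (exact permutation test over the 6 arrays, two-sided, p = 0.10 each, the smallest p that 3 against 3 allows), and for SNORA61 it was -0.12, within the spread (exact permutation p = 0.50). SNORA16A has a close copy elsewhere in the genome, whose RNA its probe may also bind.

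Inside SNHG1 the snoRNAs went in both directions. SNORD31 read 7.23, 7.03 and 7.49 in antagomiR-138 samples, against 8.05, 7.96 and 8.11 in scrambled control samples, and fell by 0.79 (adjusted p = 0.00184, limma). SNORD30 read 7.40, 7.08 and 7.46 in antagomiR-138 samples, against 7.71, 7.68 and 7.93 in scrambled control samples, and fell by 0.46 (adjusted p = 0.0193, limma; 0.0622 without scrambled control replicate 3). The difference from the host's log2 fold change was -1.05 for SNORD31 and -0.72 for SNORD30, with no overlap between the groups in either case (exact permutation test, p = 0.10 each, again the smallest possible). SNORD25, near the start of the gene, read 5.98, 6.88 and 6.29 in antagomiR-138 samples, against 5.82, 5.80 and 5.59 in scrambled control samples. It passed the test narrowly (log2 fold change 0.65, adjusted p = 0.0456, limma), and missed it without antagomiR-138 replicate 2 (log2 fold change 0.40, adjusted p = 0.0507), without antagomiR-138 replicate 3 (0.0779) and without any 1 of the 3 controls (0.0833 to 0.125). SNORD22 gave -0.30 with wide scatter (95% interval -1.01 to 0.40, adjusted p = 0.438, limma), from -0.54 without antagomiR-138 replicate 1 to -0.05 without scrambled control replicate 1, with no call in any fit that left out 1 sample. The difference from the host was 0.39 for SNORD25 and -0.56 for SNORD22, with overlap between the groups in both (exact permutation test, p = 0.40 and 0.20).

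GAS5 has 11 small RNA genes inside it, 8 of them with a probe, and although its own probe gave no usable signal, 2 of its snoRNAs could be tested. SNORD76 read 6.24, 5.89 and 5.64 in antagomiR-138 samples, against 7.06, 6.87 and 6.76 in scrambled control samples. It was apart in the groups by 0.52 and fell by 0.97 (standard error 0.16, adjusted p = 0.00240, limma), or more than any other snoRNA tested inside the members. Its antagomiR-138 values lay close to background (detection p 0.0026 to 0.026), so the size of this fall is uncertain. SNORD80 read 7.11, 6.84 and 7.09 in antagomiR-138 samples, against 7.29, 7.09 and 7.23 in scrambled control samples, and did not pass (-0.19, 95% interval -0.42 to 0.04, adjusted p = 0.150, limma). The snoRNAs of SNHG5, SNORD50A and SNORD50B, were above background on no array.

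**Figure D3:**
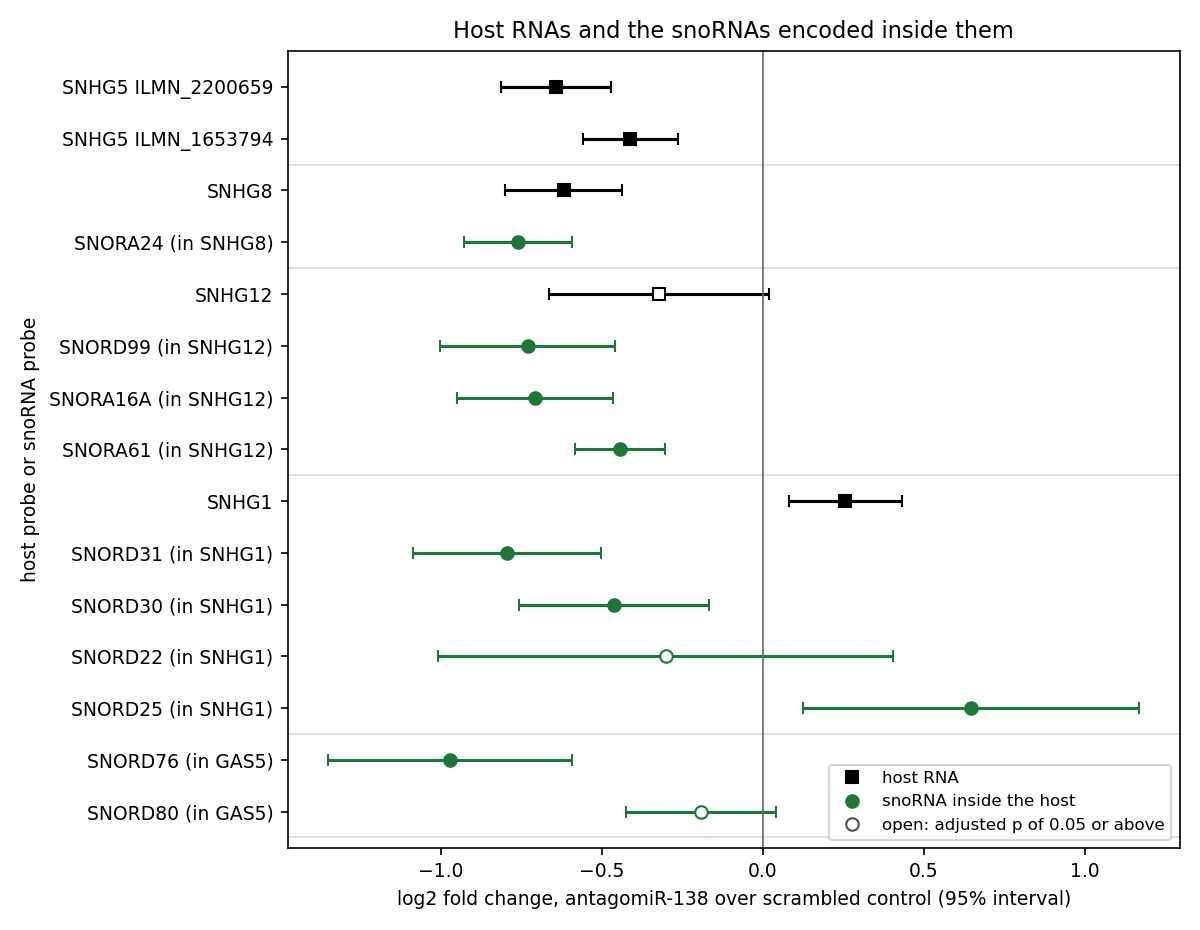
Log2 fold change (antagomiR-138 over scrambled control) with its 95% interval for each tested host probe (black squares) and each tested snoRNA inside it (green circles), grouped by host from SNHG5 at the top to GAS5, whose own probe was not tested; open symbols did not pass an adjusted p of 0.05. All symbols but SNHG1 and SNORD25 lie left of 0, and within SNHG1 the snoRNAs SNORD31 (-0.79) and SNORD30 (-0.46) lie on the other side from the host RNA (0.26).

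Other snoRNA hosts without a coding function did not share one direction. Of 13 tested, with a gene represented by its brightest probe, 5 rose, 2 fell and 6 missed the threshold (median -0.09), against 56.6% of all 11425 genes past the test, 28.9% higher and 27.7% lower. SNHG11 read 7.81 to 7.86 in antagomiR-138 samples and 7.07 to 7.26 in scrambled control samples and rose by 0.67 (adjusted p = 0.000348, limma), and SNHG17 rose by 0.49 (adjusted p = 0.000801). SNHG32 fell by 0.47 (adjusted p = 0.00104) and SNHG6 by 0.28 (adjusted p = 0.0174, limma). Of the 18 probes tested for snoRNAs inside such hosts, 8 fell, 4 rose and 6 missed the threshold, with a median of -0.27.

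Of the hosts that also code for a protein, 6 of 45 were higher, 11 lower and 28 did not pass, with a median of -0.02. TAF1D, a subunit of the factor that starts ribosomal RNA transcription, fell by 1.497 (adjusted p = 4.93e-05, limma) and IPO7, a nuclear import receptor, by 1.48 (adjusted p = 7.55e-05, limma). TBRG4, a mitochondrial RNA-binding protein, rose by 0.51 (adjusted p = 0.00280), and TCP1, a subunit of the TRiC chaperonin, by 0.31 (adjusted p = 0.00704, limma). Among all snoRNAs the extremes were SNORD13, which is transcribed from its own gene and fell by 2.04, and SNORA73A, which fell by 1.36, beside SNORA28 and SNORA59A, which rose by 2.02 and 1.72. SNORA59A read only 5.27 to 5.84 in scrambled control samples, above background on 2 of these arrays, so the size of its rise is uncertain.

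The proteins that build snoRNA particles were mixed: 6 of 18 were higher, 2 lower and 10 did not pass (median 0.03). NAF1, which loads H/ACA particles, read 7.71, 7.92 and 8.04 in antagomiR-138 samples, against 7.002, 6.89 and 6.71 in scrambled control samples, and rose by 1.02 (adjusted p = 0.000453, limma). NOLC1, a nucleolar and Cajal body chaperone of these particles, rose by 0.58 (adjusted p = 0.000404, limma). SNU13, the core protein that binds the kink-turn of C/D box snoRNAs, read 10.82, 10.79 and 10.78 in antagomiR-138 samples, against 11.78, 11.79 and 11.88 in scrambled control samples, and fell by 1.02 (adjusted p = 4.17e-05, limma). PIH1D1, of the complex that assembles box C/D particles, fell by 0.82 (adjusted p = 0.000122, limma).

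Nonsense-mediated decay, the pathway that degrades many spliced host RNAs, showed no common direction either, with 4 of 15 factors higher, 4 lower and 7 not past (median 0.03). MAGOHB, an exon junction protein, rose by 1.03 (adjusted p = 0.00245, limma) and CASC3, another, by 0.36 (adjusted p = 0.0105). PNRC2, which links the pathway to decapping, fell by 0.59 (adjusted p = 0.000931), and SMG1, the kinase that activates it, by 0.57 (adjusted p = 0.000939, limma).

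The partners of NEAT1 and MALAT1 were measured although those RNAs were not. Of 18 paraspeckle proteins tested, 10 fell, 1 rose and 7 missed the threshold, with a median of -0.35. TAF15 read 10.44, 10.23 and 10.34 in antagomiR-138 samples, against 11.68, 11.82 and 11.81 in scrambled control samples, and fell by 1.44 (adjusted p = 3.31e-05, limma). HNRNPA1 fell by 1.35 with its brightest tested probe (adjusted p = 0.000610, limma) and by 0.53 with another. That brightest probe was dim, at 5.81 to 6.15 in antagomiR-138 samples and 6.97 to 7.53 in scrambled control samples. The gene has many processed copies, whose RNA the probes may also bind. SRSF10 was called higher by 0.38 (adjusted p = 0.0240, limma), but a second probe of the gene fell by 0.38, so it has no settled direction. Of 10 nuclear speckle and MALAT1 processing proteins, 6 fell, 1 rose and 3 missed the threshold (median -0.24). The splicing factors SRSF3 and SRSF2 fell by 0.61 (adjusted p = 0.001) and 0.48 (adjusted p = 0.000773), and ELAC2, which cuts the end of transfer RNAs, rose by 0.42 (adjusted p = 0.00140, limma).

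**Figure D4:**
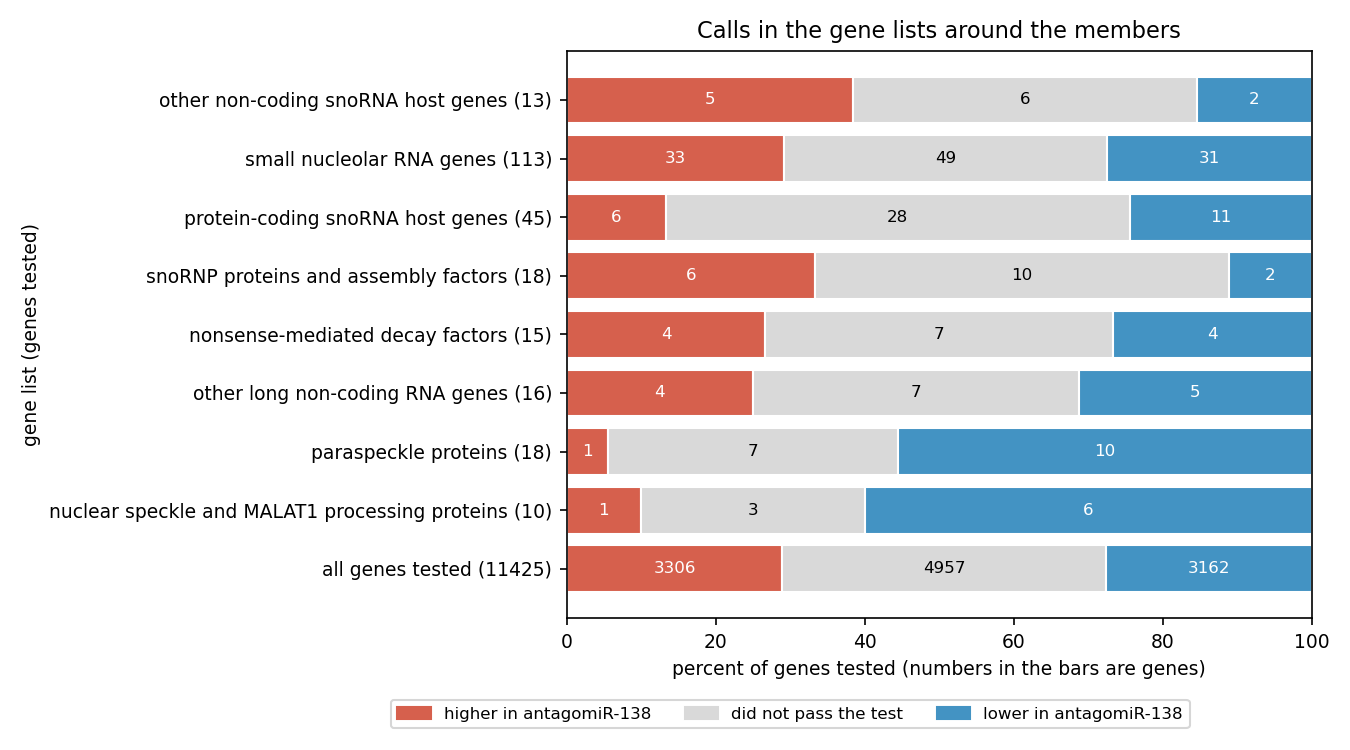
Share of the tested genes of each list (horizontal axis, percent; the number of genes stands in each bar) that were higher in antagomiR-138 cells, did not pass the test, or were lower, with all 11425 genes at the bottom. Paraspeckle proteins (10 of 18 lower) and nuclear speckle proteins (6 of 10 lower) have more falls than rises, and the other non-coding snoRNA hosts (5 of 13 higher, 2 lower) more rises than falls.

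Long non-coding RNAs outside the members had no common direction, with 4 of 16 higher, 5 lower and 7 not past (median -0.20). UCA1, first described in bladder cancer, read 7.84, 7.95 and 7.79 in antagomiR-138 samples, against 9.73, 9.53 and 9.57 in scrambled control samples, and fell by 1.75 (adjusted p = 2.02e-05, limma). PVT1 read 7.45, 7.57 and 7.44 in antagomiR-138 samples, against 5.63, 6.28 and 5.83 in scrambled control samples, and rose by 1.57 (adjusted p = 0.000328, limma). RPPH1, the RNA of ribonuclease P, fell by 0.92 (adjusted p = 8.66e-05), and CYTOR rose by 0.90 (adjusted p = 0.000282, limma). Of the 4 tested partners of the imprinted genes, none rose and 2 fell: CTCF, the insulator protein that separates H19 from its neighbour, by 0.64 (adjusted p = 0.000564) and the DNA methyltransferase DNMT1 by 0.33 (adjusted p = 0.00872, limma).

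Genes beside the members went both ways. DGCR6, next to DGCR5, fell with both of its probes, by 0.67 (adjusted p = 0.000296, limma) and 0.50, and DGCR2 on the other side gave -0.09 and did not pass (adjusted p = 0.340, limma). DGCR6 has a near-identical copy, DGCR6L, whose RNA these probes may also bind. Beside SNHG5, SYNCRIP was higher by 0.45 (adjusted p = 0.00115, limma), and HTR1E gave -0.38 and did not pass. Beside SNHG8, UGT8 was higher by 0.66 (adjusted p = 0.000283) and METTL14 lower by 0.51 (adjusted p = 0.00278, limma).

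Beside SNHG1, WDR74 was higher by 0.55 (adjusted p = 0.00621, limma), as the host was, and SLC3A2 was lower with both probes, by 0.60 and 0.42. Beside SNHG12, RCC1 fell by 0.56 (adjusted p = 0.000982) and TAF12 rose by 0.43 (adjusted p = 0.00360, limma), while the probes of TRNAU1AP, whose span overlaps SNHG12, gave 0.11 and 0.09 and did not pass. Strand is not given for the array probes' targets here, and overlapping genes are therefore uncertain. Around GAS5, RABGAP1L rose by 0.49 (adjusted p = 0.00597, limma) and CENPL gave -0.04. Around NEAT1 and MALAT1, which share their nearest tested neighbours, FRMD8 rose by 0.46 and LTBP3 fell by 0.76. Beside MEG3, BEGAIN was higher by 1.44 (adjusted p = 0.000226, limma), the largest rise among the neighbours, and MEG8 gave -0.38 without passing. BEGAIN read only 5.06 to 5.59 in scrambled control samples, above background on 2 of these arrays, so the size of its rise is uncertain. None of the neighbours of H19 (MRPL23, LSP1 and CD81) passed the test, although LSP1 probe ILMN_2355225 came close (log2 fold change 0.31, adjusted p = 0.0545, limma) and passed in 7 of 23 alternatives, and CD81 in 3.

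Markers of other cell types also moved in these samples. Of 8 fibroblast markers 5 were tested, 3 higher and 2 lower. The summed linear signal of the 5 probes was 926 to 1042 in antagomiR-138 samples and 531 to 558 in scrambled control samples. That higher sum rests on COL1A2 probe ILMN_2104356, at 9.41 to 9.53 in antagomiR-138 samples and 7.44 to 7.70 in scrambled control samples. LUM rose by 1.39 (adjusted p = 0.00108, limma). It read 6.21 to 6.69 in antagomiR-138 samples and 4.88 to 5.46 in scrambled control samples, above background on 1 control array. PDGFRB fell by 1.70. DCN fell by 0.35 (adjusted p = 0.0298, limma), was above background on 1 antagomiR-138 array, and lost the call in 10 of 22 alternatives. The markers ESR1, PGR and CDH1 of luminal cells, PTPRC and CD3E of immune cells and COL3A1, PDGFRA and POSTN of fibroblasts did not enter the test. COL1A1, a fibrillar collagen, was above background on all 3 antagomiR-138 arrays and on no control array. COL1A2 rose by 1.88 with probe ILMN_2104356 and gave -0.08 with its other probe. All 5 luminal markers tested differed, 2 higher (XBP1 and AGR2) and 3 lower (ERBB2, GATA3 and EPCAM). Of the 9 mesenchymal basal markers 1 was higher, MSN by 0.42 (adjusted p = 0.00192, limma), and 4 were lower. EGFR fell by 0.91 with its brightest probe (adjusted p = 7.60e-05, limma), while another gave -0.22 and did not pass. AXL fell by 0.80 (adjusted p = 9.99e-05, limma) and by 0.93 with its other probe. CD44 fell by 0.45 and CAV1 by 0.29, and VIM gave -0.05 without passing. Of 3 immune cell markers 1, CD68, was lower with its brightest probe, while its other probes gave 0.04 and -0.07 and did not pass. The part of these differences in the results for the snoRNA hosts and DGCR5 was not tested.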

How the data were processed

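The authors deposited, for each of the 6 arrays, a background-subtracted intensity and a detection p-value per probe, exported with GenomeStudio 1.9.0 per the submitters' processing notes, and a normalized table of intensity values, which served as an alternative. The name of the array in the methods and the annotation platform point to different Illumina designs. Of 47322 probes, 30113 carry 1 gene symbol, 8 several and 17201 none, and symbols were updated through gene IDs of RefSeq (GRCh38.p14). No probe was added by an alias alone.

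Intensities were corrected with the detection p-values (normexp), quantile normalized and put on the log2 scale with an offset of 16 (neqc, limma 3.58.1, R 4.3.3). A probe entered when its detection p was below 0.05 on 3 or more of the 6 arrays. lmFit and eBayes compared antagomiR-138 with scrambled control over all 20051 entering probes, at a Benjamini-Hochberg adjusted p of 0.05. The methods give a two-tailed Student's test for comparisons of 2 samples and none for the arrays in particular. In counts of genes a gene stands with its brightest probe. Precision is limited by the small number of arrays.

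The members and the gene lists (snoRNA hosts, long non-coding RNAs, snoRNAs, snoRNA particle proteins, decay factors, paraspeckle, speckle and imprinting partners, and markers of 4 cell types) were chosen with earlier results of these data known. Named are all members, their neighbours, the precursors of miR-138, and from each list the called genes with the 2 largest rises and 2 largest falls without overlap. Genes named beyond this (marker genes such as CD44, VIM and EPCAM, and the snoRNAs inside members, all of which were examined) were added to describe a list. Alternatives were other background corrections and normalizations, detection filters, 1 value a gene, a replicate block, other variance models, the methods' t-test, stricter thresholds and leaving out each sample. The replicate numbers did not pair the samples.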

Additional observations from a re-analysis of the deposited data

Results flagged for a closer look

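GAS5 was left out of the comparison because its probe was above background on 1 array of 6. That array, antagomiR-138 replicate 2, read 5.63 on the log2 scale (detection p 0.0169), against 4.88 in both other antagomiR-138 samples and 4.86 to 5.09 in the scrambled control samples. It is given here because it is a signal outside the tested probes that lies above every control array.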

How the results depend on the processing

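Of 136 refits of the 6 member probes, 126 kept direction and call, 9 lost the call, 1 gained it and none reversed; for the 10 snoRNAs inside members 207 of 227 did so. Probes called among all ran from 8701 to 9087 with a sample left out, and 8853 of 47322 passed with no detection filter, against 10001 in the report; with at least 1.5-fold 4442 passed. The share of calls that were higher was 47.8% with cyclic loess and 55.1% with scaling to the 75th percentile, against 52.1%, and no scaling moved the median of all probes beyond 0.06. The replicate block called 9305 probes; same-numbered samples correlated at -0.01, -0.01 and 0.04 in their deviations, and under the block SNORD22 gained a call (-0.30, adjusted p = 0.0435, limma).

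The 1 member called higher (SNHG1) was 0 with no detection filter, with the replicate block (adjusted p = 0.0649, limma), at 1.5-fold and at an adjusted p of 0.01, and 0 to 1 with a sample left out. The median log2 fold change of the member probes was -0.41 with detection on all 6 arrays, with detection on 1 array or with the brightest probe of each gene, and -0.059 with no filter, which adds 7 probes at background. At 1.5-fold the genes called were 1 imprinted partner, 2 luminal and 2 mesenchymal markers, 2 decay factors, 1 speckle protein, 5 other long non-coding RNAs, 1 other non-coding host, 7 paraspeckle proteins, 3 protein-coding hosts and 3 snoRNA particle proteins. At an adjusted p of 0.01 they were 3 luminal markers, 4 decay factors, 4 speckle proteins and 9 protein-coding hosts. Protein-coding hosts called were 10 with no filter, 11 with the replicate block and 11 to 12 with a sample left out. Fibroblast markers called were 1 with detection p under 0.01 on all 6 arrays and 3 to 4 with a sample left out; immune markers 0 when probes of a gene were averaged; luminal markers 3 with the methods' t-test after Benjamini-Hochberg; snoRNA genes 41 under the strict detection filter; and snoRNA particle proteins 13 with a variance trend. LSP1 probe ILMN_2355225 gained a call in 7 of 23 alternatives and CD81 in 3. LSP1 probe ILMN_1699836 turned to 0.12 when probes were averaged, and ran from -0.18 to 0.058 with a sample left out; the TRNAU1AP probes ran from -0.050 (ILMN_1732722) and -0.045 (ILMN_2365410) to 0.18 each. The cause was not tested. Probes near background limit what their fold changes can show. Among them are DGCR5, SNORD76 and LTBP3 in antagomiR-138 cells, and SNORD25, SNORA59A and MAGOHB in controls.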
